A study of Mus musculus with 3 samples.

Results

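The RNAs described here are the guide RNAs of the nucleolus and the Cajal body, taken as every row of the count table whose symbol begins with Snora, Snord or Scarna and that had at least 1 count in any library. There were 66 of them among 39179 genes: 28 H/ACA guides (Snora), 30 C/D guides (Snord) and 8 Cajal body guides (Scarna). A further 57 rows with these symbols had 0 counts in every library. The members were thus selected on the presence of a count in any library, which is given only as a description. The tissue was white fat, taken after an overnight fast from C57BL/6 mice aged 16 weeks with a Flag-FTO transgene. FTO takes methyl groups off adenosines in RNA. An anti-Flag M2 antibody was used for 2 libraries (Flag-IP 1 and Flag-IP 2) and IgG, which does not recognise the tag, for 1 (IgG-IP). All 3 libraries came from transgenic mice, the promoter of the transgene is not given in the sources used here, and separate animals are not stated, so the p-values may measure technical spread only. Triplets of counts are in the order Flag-IP 1, Flag-IP 2 and IgG-IP.

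Guide RNAs pair with a short stretch of another RNA and bring a modifying enzyme to it. H/ACA guides fold into hairpins, end in an ACA box and carry the pseudouridine synthase dyskerin. C/D guides carry a C box near the 5′ end and a D box near the 3′ end and bring the methyltransferase fibrillarin, which methylates ribose. Most direct the modification of ribosomal RNA in the nucleolus, and a few are needed to cut the ribosomal precursor. Cajal body guides do the same for the small nuclear RNAs of the spliceosome. In mammals most guides are cut out of introns of host genes, many of which encode ribosomal proteins or are noncoding.

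The sequences below are those of the guides with the most counts in each class, from the GENCODE M21 transcripts of GRCm38. Snora73a is added because it is nearly a copy of Snora73b, and Snora81 stands in for Snora74a, whose sequence is not given. Capitals mark the ACA that lies 3 bases before the 3′ end in H/ACA guides, and the C box letters TGATGA and D box letters CTGA in the others. Scarna2 is shown from base 115 to its end at 414 and Scarna10 from base 1 to 300 of 325. The CTGA of Scarna10 lies in the part that is not shown.
Snora73b: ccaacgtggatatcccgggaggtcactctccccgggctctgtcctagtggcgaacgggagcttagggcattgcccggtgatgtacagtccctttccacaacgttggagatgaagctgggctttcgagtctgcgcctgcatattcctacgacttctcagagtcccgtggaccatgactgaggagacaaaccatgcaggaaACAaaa
Snora73a: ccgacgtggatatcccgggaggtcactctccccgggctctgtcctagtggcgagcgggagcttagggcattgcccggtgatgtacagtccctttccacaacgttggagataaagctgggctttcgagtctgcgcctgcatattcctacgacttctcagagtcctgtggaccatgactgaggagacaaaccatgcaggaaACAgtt
Snora23: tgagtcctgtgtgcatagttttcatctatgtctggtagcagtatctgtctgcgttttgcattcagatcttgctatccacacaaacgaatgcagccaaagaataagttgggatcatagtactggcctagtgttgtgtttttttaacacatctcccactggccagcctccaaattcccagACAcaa
Snora81: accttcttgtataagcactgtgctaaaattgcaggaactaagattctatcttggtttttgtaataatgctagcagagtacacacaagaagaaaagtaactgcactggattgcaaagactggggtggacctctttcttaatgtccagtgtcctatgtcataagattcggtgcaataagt
Snord15b: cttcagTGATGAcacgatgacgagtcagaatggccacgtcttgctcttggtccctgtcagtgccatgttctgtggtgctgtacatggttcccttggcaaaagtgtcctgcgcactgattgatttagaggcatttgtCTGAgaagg
Snord17: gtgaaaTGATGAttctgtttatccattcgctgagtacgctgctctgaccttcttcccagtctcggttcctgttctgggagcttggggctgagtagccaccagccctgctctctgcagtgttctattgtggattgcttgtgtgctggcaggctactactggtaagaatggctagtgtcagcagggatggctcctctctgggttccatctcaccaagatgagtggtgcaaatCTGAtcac
Snord22: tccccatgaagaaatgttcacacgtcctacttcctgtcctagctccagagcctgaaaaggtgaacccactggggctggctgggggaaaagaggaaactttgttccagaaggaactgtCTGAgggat
Scarna2: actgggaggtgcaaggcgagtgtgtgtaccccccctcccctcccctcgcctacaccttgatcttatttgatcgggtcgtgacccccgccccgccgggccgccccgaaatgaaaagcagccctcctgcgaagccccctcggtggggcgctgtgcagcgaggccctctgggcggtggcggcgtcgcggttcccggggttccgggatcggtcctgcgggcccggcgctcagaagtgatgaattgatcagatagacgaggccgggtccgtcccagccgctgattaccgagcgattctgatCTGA
Scarna10: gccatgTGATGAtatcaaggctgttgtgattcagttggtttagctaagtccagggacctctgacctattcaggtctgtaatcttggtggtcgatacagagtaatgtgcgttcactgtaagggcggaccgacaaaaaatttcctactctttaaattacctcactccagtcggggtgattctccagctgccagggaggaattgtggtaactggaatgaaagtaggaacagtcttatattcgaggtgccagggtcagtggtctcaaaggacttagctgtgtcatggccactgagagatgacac
Scarna6: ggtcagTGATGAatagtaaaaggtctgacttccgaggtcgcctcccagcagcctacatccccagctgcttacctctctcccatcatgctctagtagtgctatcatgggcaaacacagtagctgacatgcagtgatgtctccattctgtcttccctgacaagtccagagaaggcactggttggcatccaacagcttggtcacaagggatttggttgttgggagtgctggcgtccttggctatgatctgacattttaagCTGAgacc
In GRCm38 these lie at chr4:132352322-132352526, chr4:132352775-132352979 and chr7:99479563-99479707, chr2:144265979-144266216, chr3:108554338-108554751 and chr6:125186359-125186683 on the minus strand, and at chr7:110046364-110046547, chr16:23110756-23110933, chr19:8725866-8725991 and chr1:87784556-87784820 on the plus strand. The copies Snora73a and Snora73b are both 205 bases long and differ at 7 positions (96.6% identity), so reads may not be assignable to either with certainty. Snord15a and Snord15b, neighbours in the same host gene, share 65.6% of aligned positions.

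Most H/ACA and C/D members held the boxes of their class, but not all did. The ACA at its fixed distance from the end was present in 22 of 28 H/ACA members, in 0 of 30 C/D members and in 1.77% of 18943 other annotated transcripts of 64 to 414 bases. CTGA within the last 15 bases was present in 29 of 30 C/D members, in 2 of 28 H/ACA members and in 7.77% of those other transcripts. TGATGA within the first 25 bases was present in 21 of 30, 0 of 28 and 0.971%. Both were present in 20 of the 30 C/D members. Only the strand of the RNA was searched, and the motifs do not overlap each other. Of the 8 Cajal body members 3 held both C/D letters and 2 held the ACA. Snora81 ends without the exact ACA, and Snord22 lacks the exact TGATGA.

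The libraries held 74176962 to 98227791 counts, but a single noncoding gene took 29.8% to 41.7% of them, and the tested genes had medians of 24, 26 and 25. Counts were not single independent molecules: among genes with 1 to 20 counts, 69.5% to 70.9% of values were even in each library. In Flag-IP 1, for example, 3224 genes had 2 counts, against 1198 with 1 and 632 with 3. No counting interval is therefore given for single members, and a guide at 6 counts may rest on fewer events than that number says. Whether the pattern holds among the guides themselves was not tested. Each of the 11 white adipocyte markers had counts, with sums of 464, 442 and 538. Of 10 tested, Plin1, which coats lipid droplets, was called higher (34, 59 and 12), while Cd36, which encodes a fatty acid carrier, was called lower (75, 72 and 150). Endothelial markers summed to 410, 506 and 434 and macrophage markers to 100, 93 and 142, and none of these was called.

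Guide RNAs were far more abundant in the Flag-IP libraries than in the IgG-IP library. Summed over all 66, the counts were 2019, 1243 and 246, or 20.6, 13.0 and 3.32 CPM (counts scaled to the library total). In an immunoprecipitate of bulk tissue, fewer cells of a type and less RNA per cell cannot be told apart. With TMM scaling, which sets the libraries level over most genes, the sum was 9.38-fold higher than IgG-IP in Flag-IP 1 and 5.31-fold higher in Flag-IP 2. The H/ACA guides summed to 822, 559 and 80 counts, which was 11.7-fold and 7.35-fold above IgG-IP. The C/D guides summed to 849, 508 and 98 (9.90-fold and 5.45-fold), and the Cajal body guides to 348, 176 and 68 (5.85-fold and 2.72-fold). Each class thus had its highest sum in Flag-IP 1 and its lowest in IgG-IP. The sums rest on few members: without Snora73b the H/ACA sum was 673, 375 and 42, without Snord15b the C/D sum was 451, 183 and 57, and without Scarna2 the Cajal body sum was 141, 64 and 26.

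Counted member by member over all 66, with no filter on low values, 28 were higher in both Flag-IP libraries than in IgG-IP, 8 were lower in both and 30 were neither. The same was true of 35.3% of all 31043 genes with a count for higher and 32.9% for lower. By class, 17 of 28 H/ACA, 7 of 30 C/D and 4 of 8 Cajal body guides were higher in both. The 16 members averaging 10 counts or more were all higher in both (41.4% of all genes at that level), but some reached that average through the Flag-IP libraries, so the count is a description only. Of the 50 members below it 12 were higher in both (29.8% of genes there). With the level set in IgG-IP alone, a choice made after the values were seen, 7 members had at least 10 counts there: Snora73b, Snora23, Snora73a, Snord15b, Snord17, Snord22 and Scarna2. All 7 were higher in both Flag-IP libraries, against 33.3% of the 14605 genes at that level.

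edgeR's quasi-likelihood test, fitted on the whole table, had enough counts for 17 of the 66 members, and a member can reach that level through the Flag-IP libraries alone. It called 15 higher and 0 lower at an adjusted p under 0.05, where 5.58% of all 17587 tested genes were called higher and 5.77% lower. That balance rests on the scaling: with total-count scaling 342 genes were called higher and 3008 lower, and the calls of the 17 guides were the same. None of the 17 had a negative fold change at an unadjusted p under 0.05 in edgeR or DESeq2. The 15 were 8 of 9 tested H/ACA guides (median log2 fold change 3.35), 4 of 4 C/D guides (2.97) and 3 of 4 Cajal body guides (2.39). The median over all tested genes was 0.03. IgG-IP stands alone, and the spread comes from the pair of Flag-IP libraries. Skeletal muscle markers moved the same way: their sum was 121, 71 and 27 counts, Ckm (23, 19 and 4) and Tnnt3 (39, 26 and 9) were among 3 tested and were called higher, Mylpf had 8, 0 and 0 and Acta1 4, 4 and 0. The part of muscle RNA in the guide RNA difference was not tested.

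**Figure D1:**
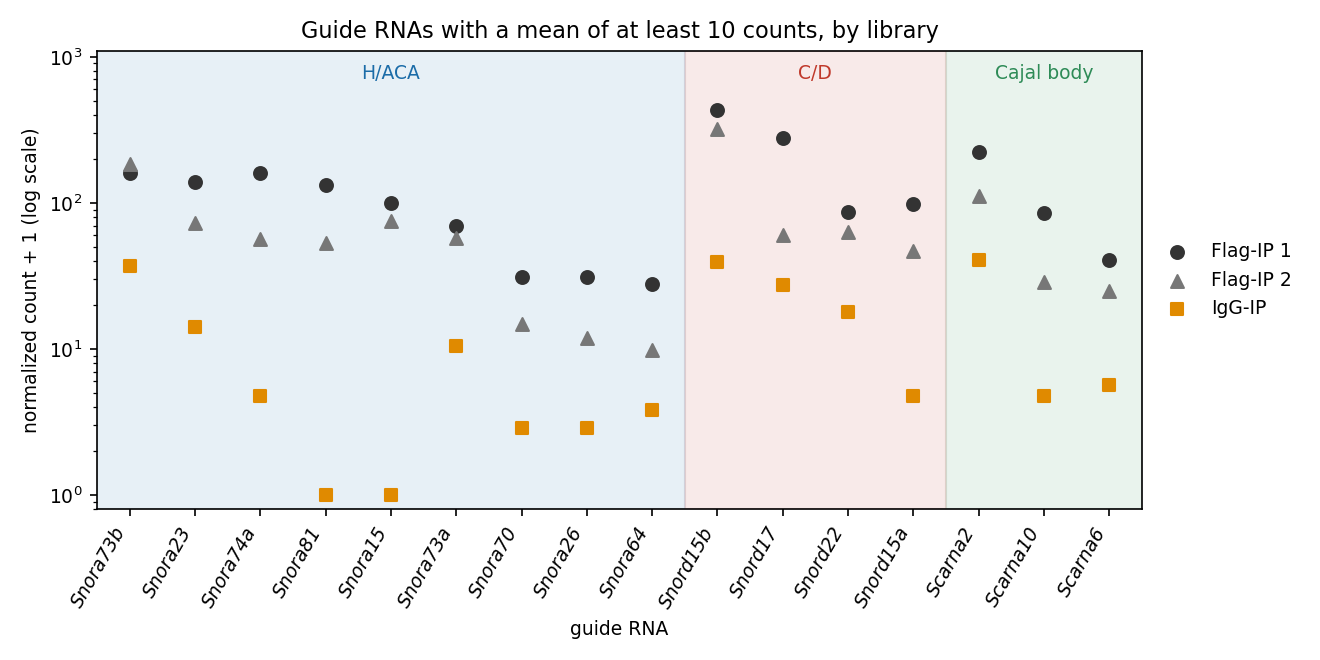
Normalized count plus 1, on a log scale, of the 16 guide RNAs with a mean of at least 10 counts (x axis), by library and class; each point is 1 library. The IgG-IP square lies lowest for every guide, at 0 counts for Snora81 and Snora15. Some of the guides reached that mean through the Flag-IP libraries.

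Among the H/ACA guides, Snora73b, which takes part in cutting the ribosomal precursor, had the most counts, with 149, 184 and 38. Its normalized count was 171 ± 15.4 (SD, n = 2) in Flag-IP against 35.8 in IgG-IP, a log2 fold change of 2.26 ± 0.31 (SE) with an edgeR adjusted p = 1.08e-10. Its copy Snora73a had 64, 57 and 10 counts, and a log2 fold change of 2.72 ± 0.49. These copies differed less between the Flag-IP libraries than the other 7 tested H/ACA guides. Both lie on chromosome 4 in introns of Rcc1 and inside the noncoding gene Snhg3.

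Snora81 and Snora15, guides of ribosomal RNA pseudouridylation, were at 0 in the IgG-IP library. Snora81 (within an annotated exon of Eif4a2, chromosome 16) had 122, 53 and 0 counts, and Snora15 (chromosome 5, 129794546 to 129794676, in Cct6a) had 92, 75 and 0. Set against a nominal 3 counts in IgG-IP, Snora81 was 46.5-fold higher in Flag-IP 1 and 18.6-fold higher in Flag-IP 2. For Snora15 these ratios were 35.1-fold and 26.3-fold. Counts were not independent events, so 3 counts may stand for fewer, and the ratios are not strict lower bounds. Among the 4979 genes of the whole table whose counts averaged 50 or more, these were the 2 at 0 in IgG-IP. This comparison was chosen after their values were seen. A gene at 0 in IgG-IP can reach that average only through the Flag-IP libraries, so the comparison is a description only.

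Snora74a had 148, 56 and 4 counts, the largest log2 fold change of the guides counted in IgG-IP (4.78 ± 0.53, SE, edgeR adjusted p = 3.65e-17). Snora23, in an intron of the nuclear import factor gene Ipo7, had 128, 72 and 14 (2.97 ± 0.42, adjusted p = 1.64e-10). Each was well above IgG-IP in both Flag-IP libraries, and in each Flag-IP 1 was the higher. The 3 other tested H/ACA guides had fewer counts. Snora70, inside the ribosomal protein gene Rpl10, had 28, 14 and 2 counts and was called higher (edgeR adjusted p = 0.00788). Snora26, inside the noncoding gene Dancr, had 28, 11 and 2 and was called higher (edgeR adjusted p = 0.0139). Snora64, inside the ribosomal protein gene Rps2, had 25, 9 and 3 and did not pass (edgeR adjusted p = 0.0637). Per 100 bases, the mean normalized count in Flag-IP was 83.6 for Snora73b, 66.2 for Snora15, 56.8 for Snora23, 54.8 for Snora74a and 51.6 for Snora81, and Snora74a overlaps each of the others over the range of the Flag-IP libraries.

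The C/D class was carried by 4 long members. Snord15b, a guide of ribosomal RNA methylation, was the most abundant of all the guides, with 398, 325 and 41 counts. It reached a normalized count of 375 ± 75.5 (SD, n = 2) against 38.6 in IgG-IP, a log2 fold change of 3.27 ± 0.29 (SE) with an edgeR adjusted p = 2.00e-26. Its neighbour Snord15a in the ribosomal protein gene Rps3 (chromosome 7) had fewer counts, 90, 46 and 4, and a log2 fold change of 4.19 ± 0.57. Snord22, known to be needed for maturation of the small ribosomal subunit RNA, had 79, 63 and 18, and a log2 fold change of 2.11 ± 0.42.

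Snord17, in an intron of the sorting nexin gene Snx5, was the least reproducible of the 16, with 258, 60 and 28 counts. Flag-IP 1 was 10.5-fold above IgG-IP and Flag-IP 2 was 2.25-fold above it. The fit, whose spread is shared between genes, gave a log2 fold change of 2.66 ± 0.33 (SE) and an edgeR adjusted p = 2.91e-13, while the Flag-IP libraries differed 4.68-fold. Per 100 bases the mean normalized count in Flag-IP was 259 for Snord15b, 70.9 for Snord17, 58.5 for Snord22 and 48.1 for Snord15a. Only the first of these levels stood above the others in both Flag-IP libraries.

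Snord118, which is the U8 RNA needed for large ribosomal subunit maturation, had 6, 0 and 0 counts, and Snord13, an RNA that guides acetylation of ribosomal RNA, had 0, 3 and 0. Neither lies inside another gene of the table. At these counts no difference between the antibodies was detectable.

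Of the Cajal body guides, Scarna2 was the most abundant, and of the 3 called higher it had the smallest fold change. This guide of spliceosomal RNA modification had 207, 112 and 42 counts, a normalized count of 167 ± 79.2 (SD, n = 2) against 39.6 and a log2 fold change of 2.07 ± 0.31 (SE, edgeR adjusted p = 3.41e-09). It lies inside no other gene of the table and so has no host here, but genes that overlap it in part were not searched for. Scarna10, in the condensin subunit gene Ncapd2, had 78, 28 and 4 counts (log2 fold change 3.84 ± 0.62, adjusted p = 5.16e-08). Scarna6, in an intron of the autophagy gene Atg16l1, had 37, 24 and 5 (2.72 ± 0.70, adjusted p = 0.00286). In all 3, the Flag-IP 1 value was the highest and IgG-IP the lowest.

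The remaining Cajal body guides had few counts and no common direction. Scarna8, in Haus6, had 11, 10 and 3 counts and did not pass (log2 fold change 1.90 ± 1.32, edgeR adjusted p = 0.391). Scarna13 had 8, 0 and 4, and Scarna3a had 4, 0 and 7. Each of these 2 had its lowest value in Flag-IP 2, and Scarna3a its highest in IgG-IP. All 8 Cajal body guides had at least 1 count in IgG-IP, against 11 of 28 H/ACA and 10 of 30 C/D guides. Of all 31043 genes with a count, 18.1% were at 0 in IgG-IP. Among the C/D guides 16 had exactly 1 count in all, so the contrast is not read as a trait of a class.

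The 2 Flag-IP libraries differed in a common direction over these RNAs. Of the 16 guides with a mean of at least 10 counts, 15 had the higher normalized count in Flag-IP 1, Snora73b being the exception, and the median fold of Flag-IP 1 over Flag-IP 2 was 2.07. A fold of at least 1.5 towards Flag-IP 1 was found in 11 of the 16, and towards Flag-IP 2 in 0. Over the 14822 genes at that level with counts in both libraries, the median fold was 1.00 and 14.4% were at least 1.5-fold higher in Flag-IP 1. The size of the excess over IgG-IP therefore depended on the library, as the ratios show. Its shared direction among these 16 is a description only, because some reached that mean through the Flag-IP libraries.

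**Figure D2:**
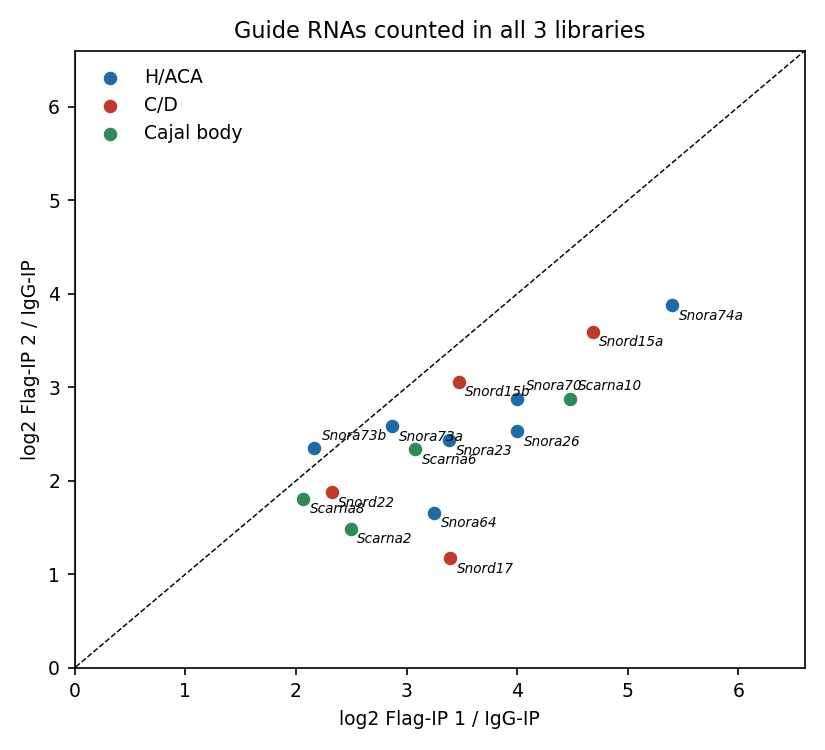
Log2 ratio of normalized counts to IgG-IP in Flag-IP 1 (x axis) and Flag-IP 2 (y axis) for the 15 guide RNAs counted in all 3 libraries, coloured by class; the dashed line marks equal ratios. All points are above 0 on both axes, from 2.07 to 5.40 and from 1.17 to 3.88, and 1 of 15 lies above the line. Guides at 0 in any library are not shown, among them the 8 that were lower in both Flag-IP libraries. The absence of points below 0 is therefore a description of the guides shown only.

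The shortest RNAs had few counts. Of the 67 rows under 100 bases, C/D guides apart from 2, 24 had any count and the highest mean was 1.33. Of the 39 rows of 125 to 149 bases, 29 had a count and 6 had a mean of at least 10, and of the 10 rows of 150 bases or more, 10 had a count and 9 had a mean of at least 10. The exception among the longest was Scarna13 (275 bases). The 4 abundant C/D guides were 126 to 238 bases long, while the other 26 counted ones were 64 to 135 and the 46 at 0 were 65 to 111. Among the H/ACA guides, those at 127 to 149 bases ranged from 0 counts to the mean of 55.7 of Snora15. Across the 123 rows, which share the same 3 libraries, Spearman's rho between length and mean count was 0.61, but within the classes it was 0.31 for H/ACA, 0.31 for C/D and 0.85 for Cajal body guides. Small RNAs were therefore compared between antibodies mostly through their longest members.

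**Figure D3:**
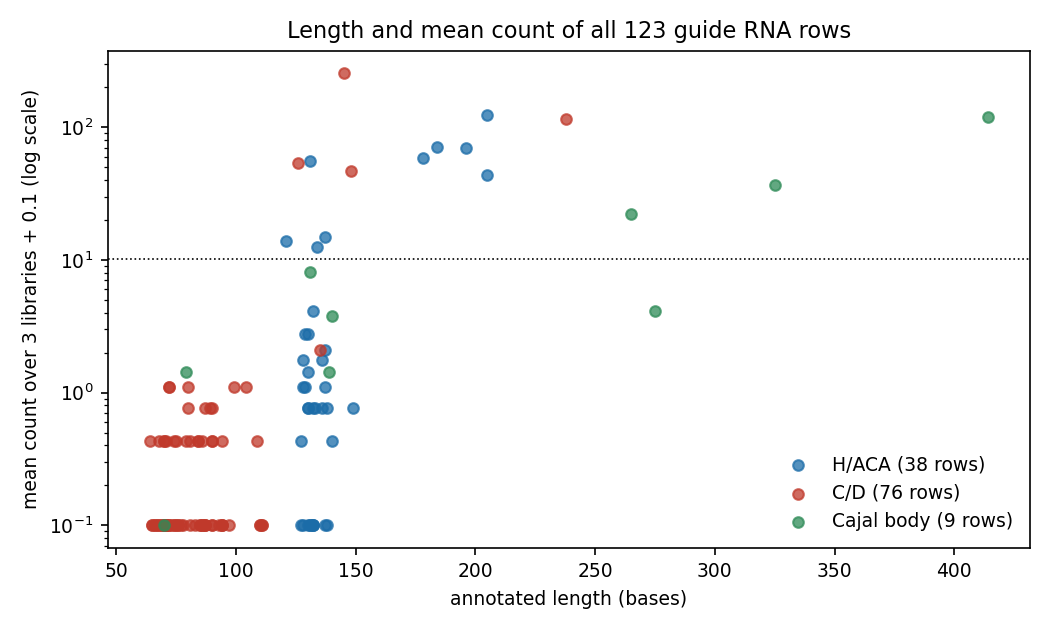
Annotated length in bases (x axis) and mean count over the 3 libraries plus 0.1, on a log scale (y axis), for all 123 rows with guide RNA symbols; each point is 1 row and the dotted line marks a mean of 10. No row under 100 bases comes near the line, and 9 of the 10 rows of at least 150 bases are above it.

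Length was not related in the same way to the difference between antibodies. Over the 17 tested guides rho between length and log2 fold change was -0.07, with Snora81 and Snora15 set against 3 counts in IgG-IP. Between GC content and log2 fold change it was -0.73. Snora15 (34.4% GC) and Snora81 (38.8%) lie at one end, and Scarna2 (64.0%), Snora73a (56.1%) and Snora73b (55.6%) at the other. These are descriptions of 17 RNAs that share the same 3 libraries and, in part, sequence. Some of them passed the filter through the Flag-IP libraries. The relation to GC content over all tested genes was not examined, so it is not read as a trait of the guides.

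The 44 members below 5 counts had at most 4 in any library: 17 H/ACA, 25 C/D and 2 Cajal body guides. Just inside the rule were 18 members with exactly 1 count in all, 16 of them C/D guides, and just outside it were the 57 rows at 0. Snora17 (6, 6 and 0 counts) and Snora31 (6, 2 and 0) were the only H/ACA guides under a mean of 10 to reach 6 counts. Against the same nominal 3 counts the Flag-IP mean of Snora17 was 2.19-fold higher. Its 6 counts may rest on fewer events than that number says, so no lower bound is drawn. Snora47 and Snora75 had 2 counts in IgG-IP and 0 in both Flag-IP libraries. Single events can decide values this low, and none of these members had enough counts to test.

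Host genes held the same reads. Of the 66 guides 60 lie inside another gene of the table, and 54 genes hold at least 1 of them. In all 162 pairs of a host and a library the host had at least as many counts as the guides inside it. Many of these pairs had guides at 0 or very few counts, where the host could hardly have fewer. The number of pairs is therefore a description only, and the hosts of abundant guides are given here. Rpl10 had 28, 14 and 2 counts, equal to those of Snora70 in every library. Rps3 had 506, 384 and 55, of which Snord15a and Snord15b together made up 488, 371 and 45. Snhg1 had 85, 68 and 18, against 79, 63 and 18 in Snord22. The same held across strands: Gm17300, which runs opposite to Snora73a and Snora73b, had 213, 242 and 48 counts, and these guides together 213, 241 and 48.

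Without the guides' counts, most of these host genes were no longer called. Of the 15 hosts whose guides had a mean of at least 10 counts, 13 were called higher as deposited. The share over all tested genes was 5.58%. Some guides reached that mean through the Flag-IP libraries, and the host counts appear to include the guides' reads. The 13 are therefore a description only. They are not independent either, as Rcc1, Snhg3 and Gm17300 all hold Snora73a and Snora73b. With the guides' counts taken off and the whole table refitted, an alternative chosen after the data were seen, 1 was called higher, 8 did not pass and 6 had too few counts left to test. Snx5 went from 286, 91 and 54 counts to 28, 31 and 26, a log2 fold change of 0.31 ± 0.49 (SE, edgeR adjusted p = 0.749). Rcc1, a nuclear exchange factor gene, went from 233, 266 and 70 to 20, 25 and 22 (0.16 ± 0.55, adjusted p = 0.893). Eif4a2, a translation initiation factor gene, kept 26, 17 and 10 (1.23 ± 0.67, adjusted p = 0.244). Ipo7 kept 17, 16 and 42 and its log2 fold change became -1.21 ± 0.50 (adjusted p = 0.0959), against 1.20 ± 0.31 as deposited. Atg16l1 stayed higher with 128, 68 and 48 counts (1.17 ± 0.33, adjusted p = 0.00758). Snhg4, the noncoding host of Snora74a, had 155, 64 and 10 counts and kept 7, 8 and 6, too few to test.

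Among the 39 hosts of guides with fewer counts, 16 could not be tested as deposited and 18 with the guides' counts taken off. In each case 4 were called higher and 1 lower. Of all tested genes 5.58% were called higher and 5.77% lower as deposited. The 1 lower was Rfwd2, a ubiquitin ligase gene that holds Scarna3a, with 47, 65 and 143 counts (log2 fold change -1.22 ± 0.29, SE, edgeR adjusted p = 0.00112) and 43, 65 and 136 without the guide. Snhg7, the noncoding host of Snora17, had 8, 10 and 4 counts and was not tested. Tpt1, the host of Snora31, had 15, 19 and 12 and did not pass (edgeR adjusted p = 0.630). Haus6, the host of Scarna8, had 27, 39 and 54 and did not pass (edgeR adjusted p = 0.379).

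The guides' own values are unaffected by taking them off their hosts. Reads of a host's precursor that cover a guide are not separated in the files used here.

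**Figure D4:**
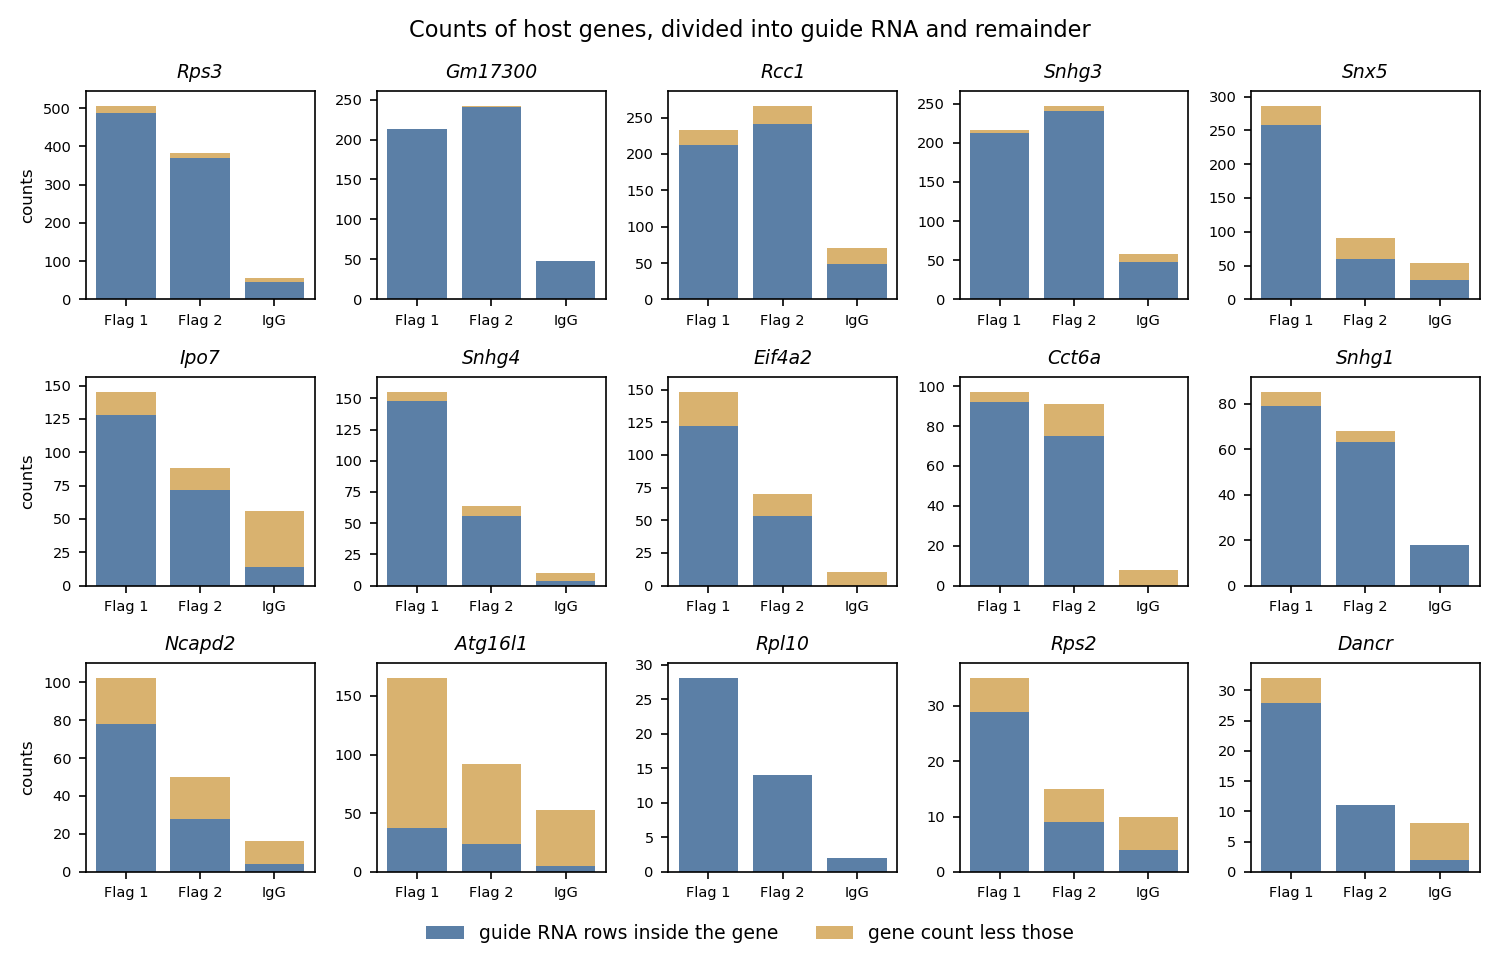
Counts per library (y axis, from 0, a scale of its own in each panel) of the 15 host genes whose guide RNAs had a mean of at least 10 counts, divided into the guide RNA rows inside the gene (lower part) and the gene's count less those (upper part). The lower part makes up nearly all of Rps3, Gm17300, Snhg3 and Rpl10, and the smaller part of Atg16l1.

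Most tested transcripts for proteins listed with guide RNAs, of which only the core proteins carry them, did not pass the test. Of 25 genes for core, assembly, Cajal body and nucleolar proteins 20 could be tested, 2 were called higher and 0 lower (edgeR adjusted p under 0.05), with 4 higher and 0 lower at an unadjusted p under 0.05. The background over all tested genes was 5.58% higher and 5.77% lower, and a count of 2 among 20 is not read as a result about the list. The median log2 fold change was 0.40, against 0.03 for all tested genes. The 2 were Ncl, which encodes nucleolin (106, 71 and 30 counts, adjusted p = 0.000204), and Bccip (27, 27 and 6, log2 fold change 2.28 ± 0.70, SE, adjusted p = 0.0172). Ncl holds Snora75 and Snord82, which had 0, 0 and 3 counts together. The H/ACA core genes Dkc1, Nhp2, Nop10 and Gar1 summed to 18, 35 and 6 counts and the C/D core genes Fbl, Nop56, Nop58 and Nhp2l1 to 41, 41 and 36, and none of the 5 of these 8 that could be tested passed. Shq1, an H/ACA assembly factor gene, had 66, 47 and 71 counts, Tgs1, which makes the cap of small nuclear RNAs, 26, 34 and 47, and Znhit6, a C/D assembly factor gene, 22, 39 and 22. None of these 3 passed.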

How the data were processed

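The deposited table holds whole-number counts per Ensembl gene, 1 column per library, with no normalization, and columns were matched by the sample numbers in the labels. Per the submitters' processing notes CASAVA 1.7, Bowtie 0.12.2 and the build mm8 were used, with roles not given. How counts were assigned to genes and strands is not given in the sources used here. Positions, lengths and sequences are from GENCODE M21 (GRCm38), matched by identifier, and 4 host genes were matched by symbol through RefSeq. No mm8 position was used.

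Low genes were dropped by filterByExpr of edgeR, minimum count 10, which left 17587. TMM factors were 0.840, 0.936 and 1.27. Both Flag-IP libraries were set against IgG-IP by the quasi-likelihood test in edgeR 4.0.16 under R 4.3.3, and p-values were adjusted by Benjamini and Hochberg's method over all tested genes, with calls at 0.05. The design leaves 1 residual degree of freedom. The procedure was run on simulated data with independent counts and the same dispersion for every gene. Low counts here were mostly even, so that run gives no measure of the errors in these data. A standard error is the log2 fold change divided by the square root of F. Normalized counts are counts over the TMM-scaled library size, times the mean of those sizes. A guide at 0 in IgG-IP was set against a nominal 3 counts in that library, which is not a strict bound.

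The members and lists were chosen with earlier results of these data known. Named were all members averaging 10 counts or reaching 5 in any library, their hosts, the protein genes that were called and the 4 of that list with the most counts. Outside this rule, Snord13, Snora47, Snora75, Gm17300, the core protein genes and the markers were named after their values were seen. The alternatives scaled by upper quartile, by RLE or by the total, left out the filter, required a mean count of 50 or more, and used DESeq2 1.42.0, a prior count of 0.5 or a single Flag-IP library.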

Additional observations from a re-analysis of the deposited data

How the results depend on the processing

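None of the 17 tested guides changed direction or call under RLE, total-count or upper-quartile scaling, without the filter or with a prior count of 0.5. Nor did the 9 still tested with a mean of at least 50 counts, or the direction of the 15 counted in IgG-IP with either Flag-IP library left out. Total-count scaling shifted the median log2 fold change by -0.52 and called 342 genes higher and 3008 lower in the whole table, against 981 and 1015. It gave a log2 ratio of the H/ACA sum of 2.72 against 3.25, and 1 called protein gene against 2. Upper-quartile scaling and no filter each gave 3. With a mean of at least 50 counts fewer genes are tested, and 5 H/ACA guides, 1 Cajal body guide and 1 protein gene were called higher. DESeq2 gave no adjusted p for any of the 9 H/ACA and 4 Cajal body guides and 20 protein genes tested, nor for 3 of the 4 C/D guides. At an unadjusted p under 0.05 it had 8, 3 and 3 of the H/ACA, C/D and Cajal body guides higher. Without 1 Flag-IP library there is no test. The number of C/D guides above IgG-IP was 13 to 19 then, against 7 in both. The log2 ratio of the sum was 2.88 to 3.55 for H/ACA, 2.45 to 3.31 for C/D and 1.44 to 2.55 for Cajal body guides. With the guides' counts taken off, the log2 fold change of Snhg3 became -1.01 and that of Ipo7 -1.21. Total-count scaling ended the call of Ipo7 (adjusted p = 0.185) and Atg16l1 (adjusted p = 0.0602) as deposited, and DESeq2 that of Snx5 (adjusted p = 0.337). Over the alternatives the edgeR adjusted p of Atg16l1 ran from 3.71e-06 to 0.0602. No paired analysis was possible because the groups share only the replicate number 1.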

Other observations

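The abundant guide RNA genes that carry other symbols were also higher in Flag-IP, and the many with few counts were not. The annotation classes 1402 further rows of the table as small nucleolar or small Cajal body RNA genes, of which 423 had a count and 16 a mean of at least 10. Over all 423, 48 (11.3%) were higher in both Flag-IP libraries than in IgG-IP and 126 (29.8%) were lower in both, against 35.3% and 32.9% of all genes with a count. Most of the 423 had a mean under 10, where 29.8% of all genes with a count were higher in both and 26.9% lower. The 16 were 133 to 343 bases long and all higher in both, but that level can be reached through the Flag-IP libraries alone. With the level set in IgG-IP, 11 rows had at least 10 counts there and 11 were higher in both Flag-IP libraries, against 33.3% of all such genes. Of the 20 tested 16 were called higher and 0 lower by edgeR's quasi-likelihood test, where 5.58% and 5.77% of all tested genes were. These rows were looked at after the values were seen.

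The most abundant were 5 genes of U3, the C/D RNA that takes part in the first cuts of the ribosomal precursor and guides no modification. Rnu3a (chromosome 10) had 421, 325 and 55 counts, and its log2 fold change was 2.90 ± 0.28 (SE, edgeR adjusted p = 1.30e-22). The other 4, on chromosome 11, had 674 to 730 counts in Flag-IP 1, 636 to 711 in Flag-IP 2 and 74 to 122 in IgG-IP. They are near-copies, so which copy the reads came from is uncertain. Gm25776 had 268, 215 and 66 counts, and the Cajal body RNA genes Gm22009 and Gm25395 had 130, 61 and 18 and 98, 41 and 14. Gm23547, with 41, 20 and 20 counts, did not pass. The 35 rows whose symbols begin with SNORA, SNORD or SCARNA in capitals had at most 2 counts.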
